A study of Mus musculus with 81 samples.

Results

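TCRBJ02-07 is the joining (J) segment of the TCRβ chain of OT-1, the transgenic CD8+ T cell that recognises an ovalbumin (OVA) peptide on H-2Kb. The rearrangements described here are those assigned to TCRBJ02-07 whose CDR3 is not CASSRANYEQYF, the CDR3 of OT-1, so they show how the rest of the repertoire used this segment. They made up 121423 of the 581514 rearrangements listed over 81 libraries, a rearrangement found in several libraries being counted in each, and held 258223 of 1365685 templates. A template is 1 estimated starting DNA molecule. Whether the assay's own correction for primer bias sets the templates assigned to each J segment was not tested, so template shares and the clone tests below depend on it. Of these rearrangements 71939 were in-frame with 176306 templates, 48399 were out-of-frame with 79806 templates and 1085 carried a stop codon. The OT-1 CDR3 was left out (997 rearrangements with 216291 templates), and 590 rearrangements assigned to TCRBJ02-05 and TCRBJ02-07 alike were not counted. The sequences do not tell which cell carried a rearrangement, so joins on the other TCRβ allele of transferred OT-1 cells cannot be told apart from those of the host. Of the out-of-frame rearrangements 574, with 27 distinct sequences and all with TCRBV12-01, lay within 2 edits of the main OT-1 sequence, and results that rest on them are given with and without them.

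A TCRβ gene is assembled in the thymus from a V, a D and a J segment, whose ends are trimmed and joined with added bases. The junction encodes CDR3, the loop that touches the peptide in the groove of the MHC molecule, and the J segment supplies the end of that loop. TCRBJ02-07 is the last segment of the second mouse J cluster, next to the constant region, and joins to either D segment. An in-frame join can be expressed as a receptor, whereas an out-of-frame join cannot and is usually carried on the other allele of a T cell.

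The following sequences show what TCRBJ02-07 brings to a junction. Bases in capitals are those the files assign to the J segment, and each sequence ends where the sequenced window ends, before the last codon of the CDR3.
OT-1 main rearrangement: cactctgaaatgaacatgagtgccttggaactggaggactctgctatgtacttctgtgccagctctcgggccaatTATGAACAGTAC
TCRBJ02-07 with no deleted base: CTCCTATGAACAGTAC
The full 16 bases were read from 13141 in-frame blood rearrangements with no deletion in the J segment. OT-1 lost 4 of them and kept 12, and a deletion of 4 bases was also the most frequent one among the other TCRBJ02-07 joins.

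All mice were CD45.1 Pep Boy mice bearing or challenged with EG7.OVA, an EL4 lymphoma that expresses OVA, and blood and tumor DNA was sequenced over the TCRβ CDR3. In the treatment experiment, 15 tumor-bearing mice received 1e6 naive OT-1 cells and then 1e9 unmodified mouse red cells (mRBC-CTRL) on days 0 and 3, or, at 2.5e8 or 1e9 cells on the same days, red cells coupled to the OVA peptide on H-2Kb, the costimulator 4-1BBL and the cytokine IL-12, named mRBC-OVA-4-1BBL-IL-12. Blood was taken on days 0 and 7 and tumors on day 7, with 4 or 5 libraries per group. In the rechallenge experiment, 7 mice whose EG7.OVA tumors had been cured by the 2.5e8 dose given with 1e6 OT-1 cells were bled before (day 65) and after (day 73) they were rechallenged with EG7.OVA, and later before and after an injection of EL4, which lacks OVA, while 5 age-matched naive mice received 5e5 OT-1 cells and were bled on days 65 and 73. The mRBC are a conjugated mouse surrogate, the OT-1 cells were transferred into hosts that kept their own T cells, and none of the samples was sorted, so host T cells, OT-1 cells and, in tumors, lymphoma cells contribute DNA to the same library.

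Libraries held 2623 to 81909 templates, and 482 to 72971 in-frame templates other than OT-1. The shallowest was day 7 blood of 1e9 mouse 5, with 135 templates of TCRBJ02-07. OT-1 was at 0 in 3 of the 4 libraries of cured mouse 2, which allows a share of up to 0.0354% to 0.0701%, the limit set by 3 templates. In tumors TCRBJ02-03 held 65.4% of all in-frame templates other than OT-1, which came with a CDR3 that is no member here, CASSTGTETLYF. Intervals and limits cover counting error only.

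TCRBJ02-07 was the most used J segment in blood. It held 28.1% ± 1.88 (SD, n = 66 libraries) of in-frame templates other than OT-1, with a lowest value of 22.3%, a median of 28.7% and a highest value of 31.2%, and ranked first in 66 of 66 blood libraries. By distinct in-frame rearrangements its share was lower, 18.9% ± 0.767 (SD, n = 66), with a range of 17.7% to 21.4%, and it ranked first in all 81 libraries of blood and tumor. By out-of-frame rearrangements it held 24.7% ± 2.10 (SD, n = 66) and again ranked first in all 81. The template share was 26.8% ± 1.88 (SD, n = 28) in blood of the treatment experiment and 29.1% ± 1.21 (SD, n = 38) in blood of the rechallenge experiment, so the experiments lay apart by about the spread between libraries. The difference between experiments was not tested.

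**Figure D1:**
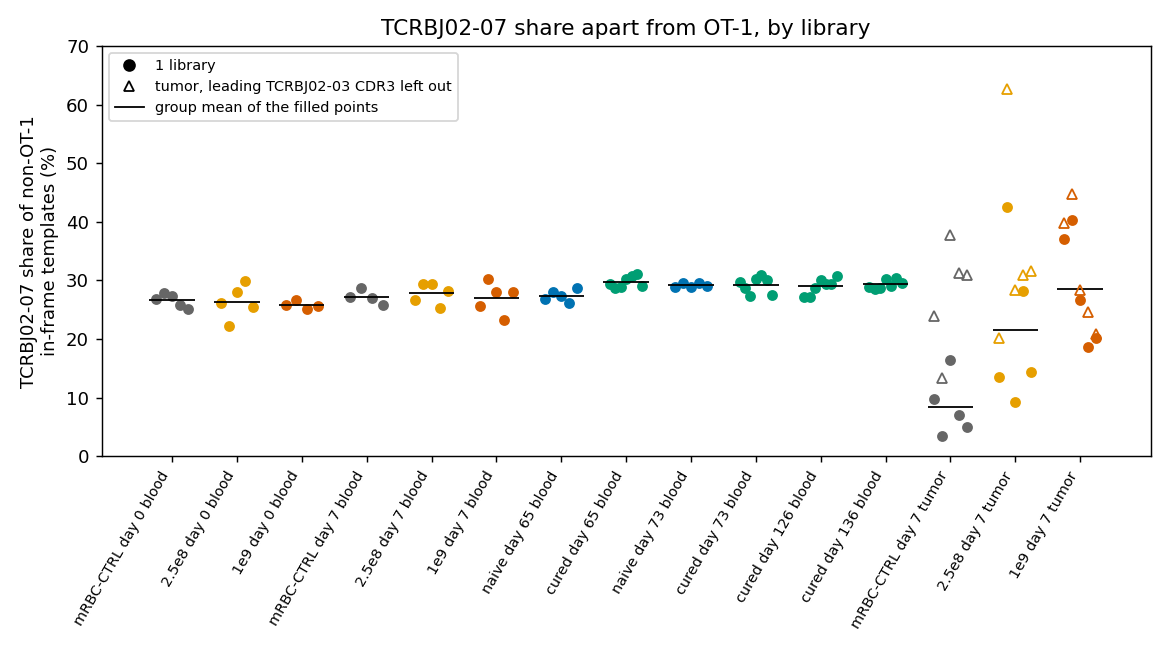
Share of in-frame templates other than OT-1 that used TCRBJ02-07 (%, y axis) in each of 81 libraries, by group (x axis, the last pair of cured blood groups being those before and after EL4). Filled points are libraries, lines are group means and open triangles are tumors with the CDR3 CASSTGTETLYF left out. Blood libraries lie between 22.3% and 31.2%, whereas tumors lie between 3.49% and 42.5%.

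The gap between its share of templates and its share of rearrangements came with a high number of templates per rearrangement. In blood, an in-frame TCRBJ02-07 rearrangement had 2.04 templates on average and a median of 2. Only 28.7% of them had 1 template, 51.4% had 2, 18.1% had 3 and 1.83% had more than 3. Among other J segments, TCRBJ01-05 came nearest with 1.68 templates on average, followed by TCRBJ01-03 with 1.55, while 98.7% of TCRBJ01-01 rearrangements had 1 template and their mean was 1.03. The TCRBJ02-07 mean was the highest of all J segments in 56 of 66 blood libraries. The pattern was not confined to in-frame joins, since out-of-frame TCRBJ02-07 rearrangements had 1.46 templates on average, and 1.77 once the G-run neighbours described further on were left out. Joins that encode no receptor thus also stood above 1 template. For part of the comparisons below, shares of distinct rearrangements are given beside template shares of TCRBJ02-07.

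**Figure D2:**
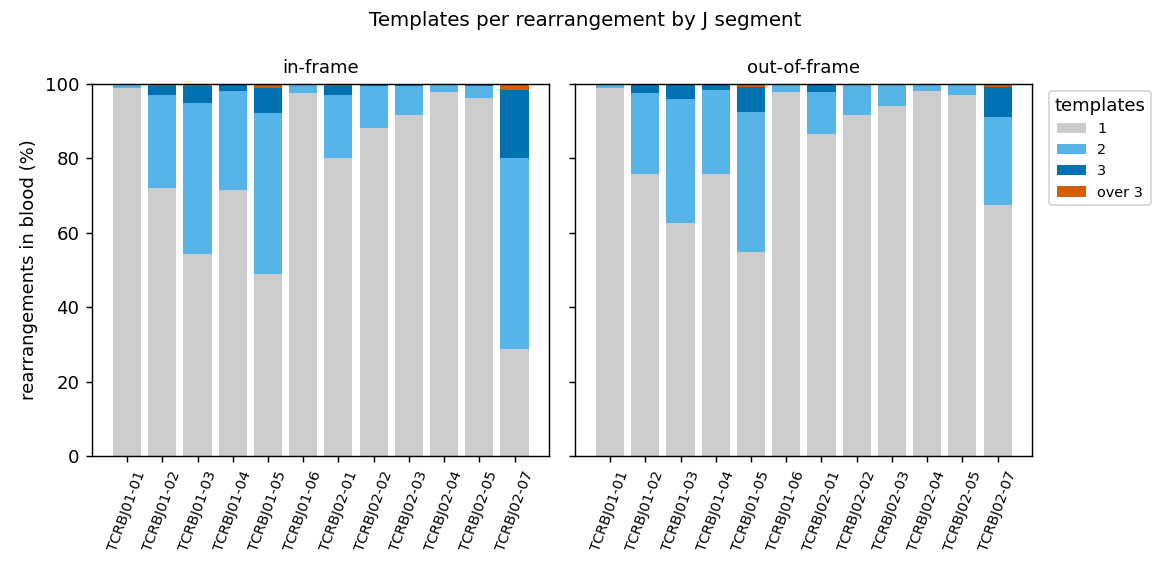
Percent of blood rearrangements other than OT-1 (y axis) with 1, 2, 3 or over 3 templates, for each J segment (x axis), in-frame and out-of-frame. In-frame TCRBJ02-07 has 28.7% of its rearrangements at 1 template, against 48.9% for TCRBJ01-05 and 98.7% for TCRBJ01-01; TCRBJ01-07 and TCRBJ02-06, which were rare, are not drawn.

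By distinct in-frame rearrangements, the J segments whose share followed that of TCRBJ02-07 most closely across the 66 blood libraries were TCRBJ02-05, TCRBJ02-01 and TCRBJ02-04. The log2 ratio of their share to that of TCRBJ02-07 had an SD of 0.09, 0.09 and 0.11 in that order. Likeness here means only a stable ratio, and libraries of 1 mouse are not independent points.

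The first question was whether treatment or challenge changed the share of TCRBJ02-07 in the blood apart from OT-1. On day 0, mRBC-CTRL mice had a share of 26.6% ± 1.09 (SD, n = 5). Mice of the 2.5e8 dose had 26.4% ± 2.89 (SD, n = 5) and those of the 1e9 dose 25.9% ± 0.582 (SD, n = 4). On day 7 the same groups had 27.2% ± 1.26 (SD, n = 4), 27.8% ± 1.77 (SD, n = 5) and 27.04% ± 2.65 (SD, n = 5). The groups overlapped at both times, and the differences from mRBC-CTRL lay between -0.75 and 0.65 percentage points (exact permutation tests over all assignments of the mice, p from 0.246 to 0.929, adjusted p from 0.383 to 1 over the 14 J segments). OT-1 differed far more in the same libraries, at 63.6% of in-frame templates in day 7 blood at 1e9 and 3.62% in mRBC-CTRL mice. Within mice, the change from day 0 to day 7 was 0.629 ± 0.998 percentage points in mRBC-CTRL mice (3 of 4 higher), 1.41 ± 4.23 with the 2.5e8 dose (4 of 5 higher) and 1.52 ± 2.61 with the 1e9 dose (3 of 4 higher; mean ± SD), none of them past the test (exact sign-flip permutation tests, p from 0.375 to 0.562). In these 7 comparisons 0% of the 14 J segments were called by adjusted p, with 0 or 1 segment at an unadjusted p under 0.05. With 4 and 5 pairs the smallest p is 0.125 and 0.0625, so these within-mouse tests could not pass the threshold of 0.05.

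Before rechallenge, cured mice had a higher share of TCRBJ02-07 templates than naive mice. The 5 naive mice had 26.8%, 28.0%, 27.4%, 26.1% and 28.8% on day 65, and the 7 cured mice had a lowest value of 28.7%, a median of 29.3% and a highest value of 31.2%. The groups overlapped only between the highest naive mouse and the lowest cured mouse. Cured mice were higher by 2.30 percentage points on average (p = 0.00253 by an exact permutation test, 0.0354 after adjustment; 14.3% of J segments were called in this comparison). It was not seen in distinct rearrangements, where the shares were 18.9% ± 0.537 (SD, n = 7) in cured and 18.5% ± 0.660 (SD, n = 5) in naive mice (difference 0.356, exact permutation test, adjusted p = 0.784; 0% of J segments called, 1 at an unadjusted p under 0.05). Cured mice had 2.17 ± 0.0876 (SD, n = 7) templates per TCRBJ02-07 rearrangement and naive mice 1.97 ± 0.0588 (SD, n = 5), and their libraries held 9295 and 4756 in-frame templates other than OT-1 on average. With every library subsampled to 482 templates, the difference was 2.15 and no longer called (exact permutation test, adjusted p = 0.848). This was 1 random draw at the depth of the shallowest library of all, and its added counting error can by itself end a call. Leaving out any of 9 of the 12 mice also ended the call (adjusted p up to 0.127, without naive mouse 4), the exceptions being cured mice 2 and 6 and naive mouse 5. Among out-of-frame rearrangements the difference was 0.761 percentage points (exact permutation test, adjusted p = 0.516; 7.14% of J segments called). With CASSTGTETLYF left out, 14.3% of J segments were called as before.

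On day 73 the share was 29.2% ± 0.380 (SD, n = 5) in naive mice and 29.2% ± 1.40 (SD, n = 7) in cured mice. The difference, cured minus naive, was -0.00171 percentage points over all templates and 1.53 without rearrangements of 1 template. It was 1.69 in 1 random draw of 482 templates from every library (exact permutation test, adjusted p = 0.43). That depth, of the shallowest library of all, adds counting error, so the draw cannot tell whether the difference depends on depth. All 5 naive mice were higher on day 73 than on day 65, with a mean change of 1.79 ± 1.16 percentage points (SD). With 5 pairs this could not pass the threshold (exact sign-flip permutation test, p = 0.0625, adjusted p = 0.583). The change in cured mice was -0.505 ± 0.854 (SD, 3 of 7 higher). The change differed between the groups by -2.30 percentage points (exact permutation test, p = 0.00253). This contrast restates the day 65 difference of 2.30, since the group means hardly differed on day 73. From before to after the EL4 challenge, the change in cured mice was 0.380 ± 0.991 percentage points (SD, 4 of 7 higher; exact sign-flip permutation test, p = 0.344). In the day 73 comparison and in the 3 within-mouse comparisons, 0% of J segments were called, with 0 to 2 segments at an unadjusted p under 0.05. By distinct rearrangements the day 73 share was 18.3% ± 0.577 (SD, n = 7) in cured and 19.1% ± 0.561 (SD, n = 5) in naive mice. This difference of -0.866 was not called (exact permutation test, p = 0.0429, adjusted p = 0.301, 0% of J segments called). In cured mice the change from day 65 was -0.598, higher in 1 of 7 (exact sign-flip permutation test, p = 0.0469, adjusted p = 0.656, 0% called). In naive mice it was 0.623, higher in 4 of 5.

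Tumors differed more than blood. The gap between 1e9 and mRBC-CTRL tumors shrank when a CDR3 of another J segment was left out, as given below. In mRBC-CTRL tumors TCRBJ02-07 held 9.75%, 3.49%, 16.5%, 7.04% and 5.02% of in-frame templates other than OT-1 in mice 1 to 5. At 2.5e8 the values were 13.5%, 42.5%, 9.36%, 28.2% and 14.4%, and at 1e9 they were 37.0%, 40.2%, 26.7%, 18.6% and 20.1%. All 1e9 tumors lay above all mRBC-CTRL tumors, and the 2.5e8 tumors spanned both. The 1e9 and mRBC-CTRL means lay 20.2 percentage points apart (exact permutation test, p = 0.00794, the smallest these groups allow, adjusted p = 0.0185), in a comparison in which 57.1% of the J segments were called. The 2.5e8 mean lay 13.2 percentage points above that of mRBC-CTRL (exact permutation test, p = 0.0635, adjusted p = 0.148; 0% of J segments called, 5 at an unadjusted p under 0.05).

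The share in tumors depended on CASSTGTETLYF, which is not a TCRBJ02-07 CDR3 but fills the denominator. Without it mRBC-CTRL tumors had 27.5% ± 9.25 of TCRBJ02-07, 2.5e8 tumors 34.8% ± 16.2 and 1e9 tumors 31.7% ± 10.2 (SD, n = 5 each). The difference between 1e9 and mRBC-CTRL was then 4.29 percentage points (exact permutation test, adjusted p = 0.790; 0% of J segments called, 1 at an unadjusted p under 0.05). By distinct rearrangements the shares were 21.6% ± 1.26, 21.2% ± 1.61 and 21.8% ± 1.503 (SD, n = 5 each) in mRBC-CTRL, 2.5e8 and 1e9 tumors, and the difference of 0.269 between 1e9 and mRBC-CTRL was within the spread between tumors (exact permutation test, adjusted p = 1; 0% of J segments called, 0 at an unadjusted p under 0.05). Out-of-frame rearrangements of TCRBJ02-07 were more frequent in 1e9 tumors than in mRBC-CTRL tumors, at 28.1% to 34.2% with a median of 29.0% against 22.0% to 26.5% with a median of 24.7% (difference of means 5.39, exact permutation test, p = 0.00794, adjusted p = 0.0370; 21.4% of J segments called). The 1e9 tumors also held more OT-1, 76.9% of in-frame templates against 9.02%. Rearrangements within 2 edits of OT-1 made up 11.5% of out-of-frame TCRBJ02-07 rearrangements in 1e9 tumors and 2.61% in mRBC-CTRL tumors. Without them the shares were 27.2% ± 1.21 and 24.1% ± 1.89 (SD, n = 5 each), the ranges overlapped and the difference of 3.14 was not called (exact permutation test, adjusted p = 0.0741; 0% of J segments called, 6 at an unadjusted p under 0.05). Without those within 4 edits it was 2.36 (exact permutation test, adjusted p = 0.111; 0% called, 6 unadjusted). Without G-run neighbours, the sequences set apart below by a run of G, it was 5.19 (exact permutation test, adjusted p = 0.0556; 0% called, 4 unadjusted), and without both these and those within 4 edits of OT-1 it was 0.980 (exact permutation test, adjusted p = 0.519; 0% called, 4 unadjusted). The call was also lost without mRBC-CTRL mouse 1, 2, 3 or 5 (exact permutation test, adjusted p = 0.0556).

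Between tumor and blood of the same mouse on day 7, the direction depended on what was counted. By templates the share was lower in tumor by 7.16 percentage points on average, and higher in 4 of 14 mice (sign-flip permutation test, adjusted p = 0.0886, in a comparison in which 57.1% of J segments were called). This test pooled 3 arms that differed. Group means were 8.36% in tumor and 27.2% in blood of mRBC-CTRL mice, 21.6% and 27.8% at 2.5e8, and 28.5% and 27.04% at 1e9. Tumor and blood were not tested within each arm. By distinct rearrangements it was higher in tumor, at 21.5% against 19.6%, in 11 of 14 mice (difference 1.91 ± 1.76 SD, permutation test, adjusted p = 0.0140, 28.6% of J segments called). Some of the extra tumor rearrangements share the CDR3 of a rearrangement with at least 20 times their templates in the same library. Such rearrangements were 5.32% of TCRBJ02-07 and 3.65% of other in-frame rearrangements in tumor, and 0.158% and 0.0211% in blood. Without them the difference by distinct rearrangements was 1.40 percentage points (permutation test, adjusted p = 0.0543). With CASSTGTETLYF left out, the template share was higher in tumor by 4.50 percentage points in 10 of 14 mice (permutation test, adjusted p = 0.438, 14.3% of J segments called).

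A second question was how TCRBJ02-07 was used in joins that can and cannot encode a receptor. Over the blood of each of the 27 mice, TCRBJ02-07 held 18.9% ± 0.509 of distinct in-frame and 24.3% ± 1.32 (SD, n = 27) of distinct out-of-frame rearrangements. The in-frame share was lower in 27 of 27 mice, by 5.36 percentage points (sign-flip permutation test, adjusted p = 2e-05, in a comparison in which 78.6% of the 14 J segments were called). This order went with rearrangements that differ by 1 base in the length of a run of G from a rearrangement with more templates in the same library, called G-run neighbours here. The following rearrangements from blood of cured mouse 6 after the EL4 challenge are an example, chosen after the values were seen. They are identical except for the G run, in capitals, and for the bases at the start of the window, which is fixed at the J end.
in-frame, 383 templates: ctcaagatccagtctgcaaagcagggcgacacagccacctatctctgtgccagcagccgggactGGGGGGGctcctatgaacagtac
out-of-frame, 7 templates: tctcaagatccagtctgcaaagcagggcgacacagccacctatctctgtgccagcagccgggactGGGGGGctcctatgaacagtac
out-of-frame, 6 templates: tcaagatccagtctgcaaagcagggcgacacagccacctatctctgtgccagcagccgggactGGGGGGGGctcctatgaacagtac
The in-frame member has a run of 7 G, and the others have 6 and 8. It was the largest TCRBJ02-07 rearrangement of that library.

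G-run neighbours were 40.1% of the 44191 out-of-frame TCRBJ02-07 rearrangements in blood, 17702 in number. Among other J segments they were 0% of out-of-frame joins in the rare TCRBJ02-06 and otherwise 0.0349% to 9.82%, the highest in TCRBJ02-01, and in in-frame TCRBJ02-07 joins they were 2.77%. A G-run neighbour by definition has fewer templates than its partner. Segments whose joins mostly have 1 template, such as TCRBJ01-01 (98.7% of in-frame joins in blood), thus offer few such partners. Rates by segment therefore depend on templates per rearrangement, and rates with equal template counts included were not computed by segment. Per blood library they were 21.5% to 49.7% of out-of-frame TCRBJ02-07 joins and 1.80% to 12.7% of those of other J segments, and in tumors 31.0% to 43.9% and 5.36% to 15.1%. Of the neighbours in blood 99.7% had 1 template, which the definition favours, and 87.2% were assigned the D segment TCRBD02. That segment was assigned to 66.6% of all out-of-frame TCRBJ02-07 joins in blood. G-run neighbours were 52.4% of these joins with TCRBD02 and 11.4% of those with TCRBD01.

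Without G-run neighbours the order turned. TCRBJ02-07 then held 18.5% ± 0.476 of in-frame and 16.7% ± 0.873 (SD, n = 27) of out-of-frame rearrangements, and the in-frame share was higher in 27 of 27 mice by 1.79 percentage points (sign-flip permutation test, adjusted p = 1.4e-05, 85.7% of J segments called). Leaving out G-run neighbours itself favours this order. It removed 40.1% of out-of-frame but 2.77% of in-frame TCRBJ02-07 joins, and at most 9.82% of out-of-frame joins of other J segments. A step of 1 base takes an in-frame join out of frame, and a neighbour needs a partner with more templates. The test therefore cannot tell how much of the reversal the filter made. Over joins with TCRBD01 only the direction was the same (1.28, higher in 25 of 27 mice). Over rearrangements with 2 or more templates it was also the same (6.89, higher in 27 of 27), but this is not a separate check. That filter removes nearly all G-run neighbours, since 99.7% of them had 1 template. In blood 28.7% of in-frame and 67.5% of out-of-frame TCRBJ02-07 rearrangements had 1 template, so the filter removes a larger part of the out-of-frame joins. By templates the in-frame and out-of-frame shares were 27.6% and 28.0%, a difference of -0.416 percentage points (permutation test, n = 27, adjusted p = 0.166). The origin of the G-run neighbours was not tested.

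**Figure D3:**
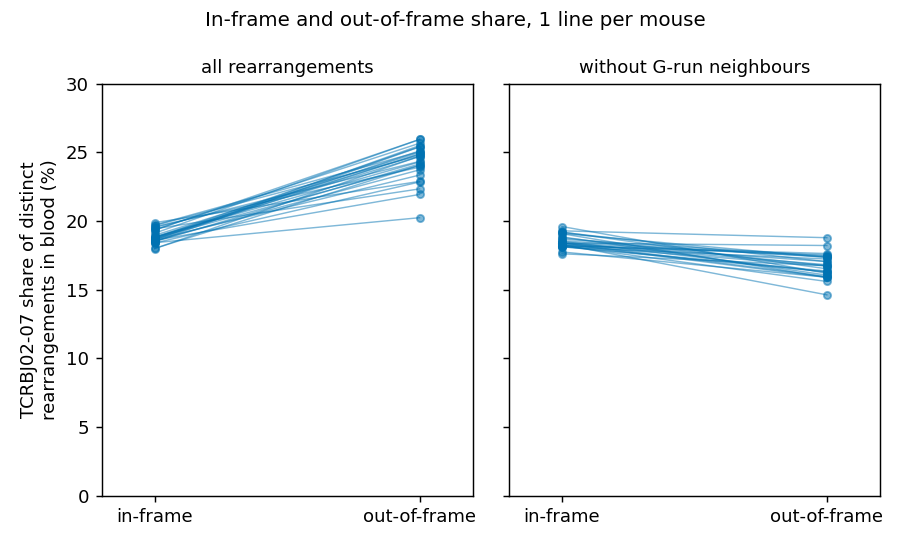
TCRBJ02-07 share of distinct blood rearrangements (%, y axis) among in-frame and out-of-frame joins, 1 line per mouse (27 mice), for all rearrangements and without G-run neighbours. All lines rise to the out-of-frame share in the left panel, from 18.9% to 24.3% on average, and all fall in the right panel, from 18.5% to 16.7%.

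The junctions of TCRBJ02-07 were short. In blood, its in-frame CDR3s had 13.3 ± 0.0544 residues, and those of all other J segments 14.03 ± 0.0211 (SD, n = 27 mice). The difference of -0.74 residues had the same sign in 27 of 27 mice (sign-flip permutation test, adjusted p = 1e-05, the smallest that 100000 resamples give), and against the other segments of the TCRBJ02 cluster it was -0.943. A length of 14 residues was the most frequent for TCRBJ02-07 (29.4%), followed by 13 (24.0%) and 12 (19.2%), while 14 (31.3%) and 15 (23.5%) led among other J segments. OT-1, with 12 residues, lies in the shorter part of this distribution. Only TCRBJ01-01, with 13.3 residues, was as short among the common J segments.

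The J end of TCRBJ02-07 was trimmed more than that of other J segments pooled. TCRBJ02-07 had lost 3.61 ± 0.0575 bases and other J segments 2.61 ± 0.0306 (SD, n = 27), and the loss was larger in 27 of 27 mice (permutation test, adjusted p = 1e-05). Among other J segments, TCRBJ01-06 lost 4.22 bases with 14.3 residues, TCRBJ02-01 lost 3.48 with 14.2, TCRBJ01-01 lost 2.75 with 13.3 and TCRBJ02-03 lost 1.48 with 14.5. Whether trimming and length go together across J segments was not tested. A loss of 4 bases, that of OT-1, was found in 23.1% of in-frame TCRBJ02-07 joins, a loss of 0 in 19.97%, of 7 in 14.6% and of 3 in 13.7%. Added bases were slightly more frequent, 3.57 against 3.37 (higher in 27 of 27), and V ends were trimmed slightly less, 2.53 against 2.65 bases (lower in 25 of 27), both past the permutation test (n = 27, adjusted p = 1e-05). TCRBD02 was assigned to 49.8% of TCRBJ02-07 joins, against 29.3% of all other joins and 47.7% of those of the other TCRBJ02 segments. The CDR3 ended in YEQYF without a serine before it in 41.0%, in SYEQYF in 25.3% and in EQYF without that tyrosine in 31.7% of rearrangements. CDR3 length hardly varied between groups of blood libraries, with library means from 13.2 to 13.4 residues, and lay between 13.2 and 13.6 in tumors.

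V genes were not joined to TCRBJ02-07 in the proportions seen with other J segments. Of 35 V genes tested over the blood of 27 mice, 18 (51.4%) differed in their share of distinct in-frame rearrangements, 7 higher and 11 lower with TCRBJ02-07 (sign-flip permutation test, adjusted p under 0.05). The largest higher share was that of TCRBV13-02, at 11.9% ± 1.08 with TCRBJ02-07 and 10.8% ± 0.372 (SD, n = 27) with other J segments, higher in 25 of 27 mice. TCRBV15-01 was at 4.18% against 3.33% (higher in 26 of 27), TCRBV16-01 at 6.02% against 5.47% (17 of 27) and TCRBV04-01 at 4.69% against 4.39% (21 of 27). The largest lower share was that of TCRBV31-01, at 5.01% ± 0.552 against 6.14% ± 0.394 (SD, n = 27), lower in 26 of 27 mice. This V gene lies on the far side of the J clusters and joins by inversion. TCRBV19-01 was at 7.05% against 7.73% (lower in 21 of 27), TCRBV01-01 at 5.14% against 5.80% (24 of 27), TCRBV02-01 at 5.43% against 5.97% (24 of 27) and TCRBV26-01 at 2.91% against 3.38% (21 of 27). All of these differences were small beside the usage itself, the share with TCRBJ02-07 being 0.816 to 1.25 times that with other J segments in the 10 V genes with the largest differences.

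**Figure D4:**
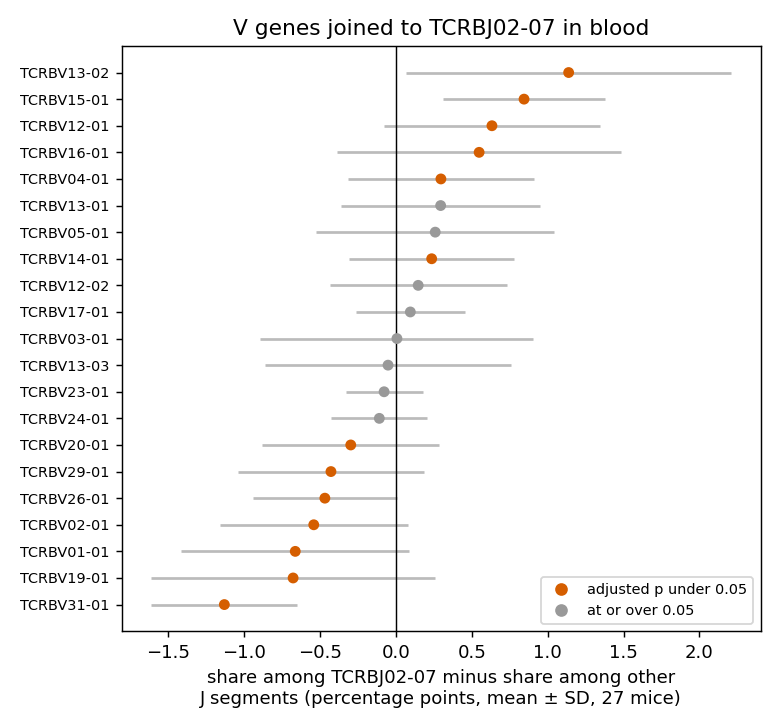
Share of each V gene among in-frame TCRBJ02-07 rearrangements minus its share among other J segments (percentage points, x axis) in blood, for the 21 most frequent V genes (y axis). Points are means over 27 mice, bars are SD, and colour marks an adjusted p under 0.05; TCRBV13-02 (1.14) and TCRBV31-01 (-1.13) lie at the ends.

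TCRBV12-01, the V gene of OT-1, was one of the V genes with a higher share. Apart from OT-1 it made up 5.07% ± 0.968 of TCRBJ02-07 and 4.43% ± 0.696 (SD, n = 27) of other rearrangements, a difference of 0.632 percentage points, higher in 25 of 27 mice (permutation test, adjusted p = 0.000560). Leaving out rearrangements within 2 edits of the main OT-1 rearrangement gave 0.615. Against the other TCRBJ02 segments alone the difference was 0.301 and no longer called (permutation test, n = 27, adjusted p = 0.208), and in day 0 blood of the treatment experiment it was 0.442 (permutation test, n = 14, adjusted p = 0.191). The TCRBV12-01 share of TCRBJ02-07 was 5.06% ± 0.772 (SD, n = 4) in day 0 blood at 1e9, 8.05% ± 1.26 (SD, n = 5) in day 7 blood and 12.4% ± 3.25 (SD, n = 5) in tumor, where OT-1 held 26.9%, 63.6% and 76.9% of in-frame templates. Among other J segments it was 4.33%, 6.19% and 6.54% in the same libraries. In mRBC-CTRL tumors, with 9.02% OT-1, TCRBV12-01 held 9.21% ± 0.949 of TCRBJ02-07 and 7.02% ± 0.583 (SD, n = 5) of other rearrangements. Over all blood, leaving out rearrangements within 4 edits of OT-1 (103 of TCRBJ02-07 and 1 of other J segments) lowered the difference to 0.490, higher in 23 of 27 mice and still called (permutation test, adjusted p = 0.00236). The part of OT-1 sequences read with errors in the tumor shares was not tested.

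Among out-of-frame joins without G-run neighbours, 17 of 35 V genes (48.6%) differed between TCRBJ02-07 and other J segments. Of the 18 V genes called in-frame, 14 had the same sign out-of-frame and 7 were called in both with the same sign. TCRBV13-02 was at 9.83% against 8.49%, TCRBV31-01 at 4.02% against 4.76%, TCRBV01-01 at 3.69% against 4.797% and TCRBV02-01 at 3.52% against 4.92%, all past the permutation test with and without rearrangements within 2 edits of OT-1. TCRBV12-01 was at 8.08% against 5.82% (higher in 26 of 27 mice), but this rested on the rearrangements near OT-1. Without those within 2 edits it was at 6.09% against 5.82% (higher in 16 of 27 mice, permutation test, adjusted p = 0.446), and without those within 4 edits at 5.68% against 5.82% (higher in 12 of 27, adjusted p = 0.702), with 45.7% of V genes called in each. Of the 18 V genes called in-frame, 6 were then called in both with the same sign when those within 2 edits were left out. TCRBV15-01, at 4.85% against 4.91%, TCRBV19-01, at 6.88% against 6.82%, and TCRBV04-01, at 7.15% against 7.45%, were not called and had the opposite sign to that in-frame, whereas TCRBV16-01, at 5.33% against 4.81%, and TCRBV26-01, at 2.69% against 2.93%, were not called and had the same sign. Without the rearrangements within 2 edits TCRBV16-01 was called (difference 0.640, permutation test, adjusted p = 0.0381), and TCRBV15-01 turned to the in-frame sign without a call (difference 0.0473).

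The largest TCRBJ02-07 rearrangement of a library, apart from OT-1, was small in blood before treatment and in naive mice. It was larger in all tumors but that of mRBC-CTRL mouse 2. It held 0.0817% to 0.485% of in-frame templates other than OT-1 in the 14 day 0 blood libraries and 0.0969% to 0.220% in the 10 libraries of naive mice. On day 7 it held 0.289% to 1.64% in blood of mRBC-CTRL mice, 0.742% to 6.86% at 2.5e8 and 1.85% to 5.02% at 1e9. Each 1e9 value in day 7 blood was above each mRBC-CTRL value, but counting error leaves this order uncertain. The value of 1e9 mouse 5, 1.87%, rested on 9 templates. Its Wilson interval, 0.985% to 3.51%, included the highest mRBC-CTRL value. Apart from OT-1, these rearrangements of 1e9 mice 1 to 5 ranked 1, 2, 1, 3 and 2 in their libraries. Some libraries thus held larger rearrangements of other J segments, which were not compared between groups. In tumors the largest TCRBJ02-07 rearrangement held 0.188% to 4.50% in mRBC-CTRL mice, 1.09% to 24.6% at 2.5e8 and 3.37% to 12.4% at 1e9. The denominator of these tumor shares includes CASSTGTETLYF, so they depend on how much of it a tumor held. In cured mice it ranged from 0.0797% to 5.65% over the 4 samplings. These are largest values chosen from each library and the groups were not tested on them.

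**Figure D5:**
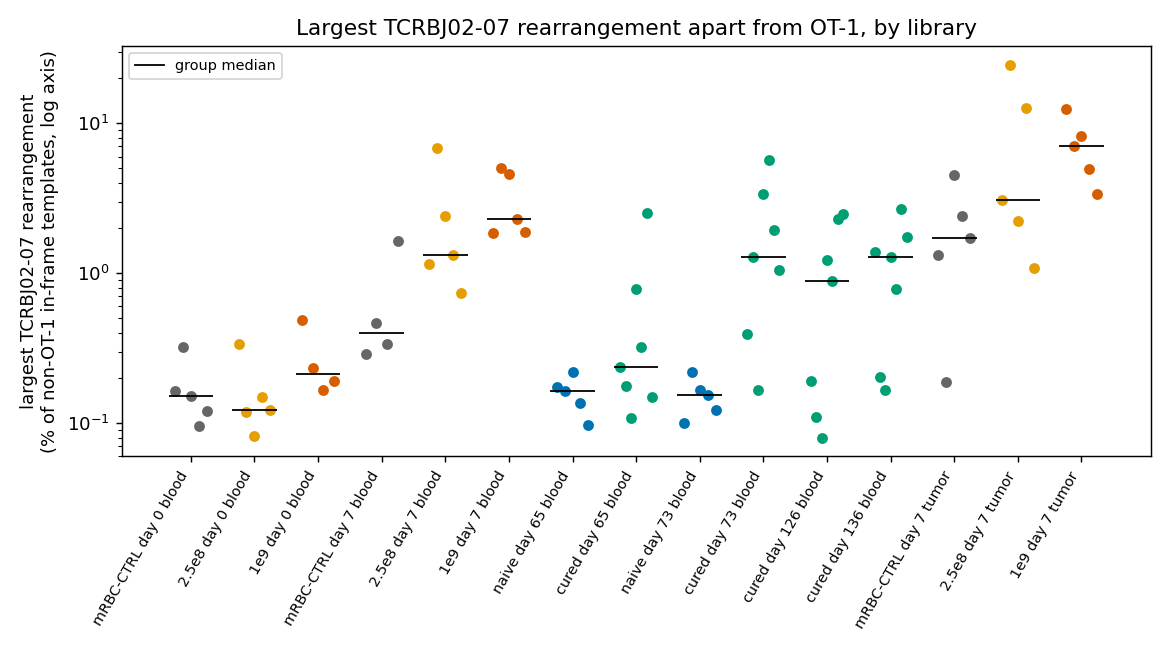
Share of in-frame templates other than OT-1 held by the largest TCRBJ02-07 rearrangement (%, log y axis) in each of 81 libraries, by group (x axis, the last pair of cured blood groups being those before and after EL4). Points are libraries and lines are group medians, which lie at 0.122% to 0.211% in day 0 blood of the 3 treatment groups and at 1.70% to 7.01% in their tumors. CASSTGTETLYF is counted in the denominator.

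The largest TCRBJ02-07 rearrangement of a tumor was found in the day 7 blood of the same mouse in all 14 mice with such a library, with 1 to 336 templates, and in the day 0 blood in 2 of 14. The largest of all belonged to 2.5e8 mouse 2, with TCRBV19-01 and a CDR3 of 14 residues that ends in GTGGDEQYF. It had 22 templates in day 0 blood (0.119%, 95% Wilson interval 0.0785% to 0.180%), 336 in day 7 blood (6.86%, 6.18% to 7.60%) and 3250 in the tumor (24.6%, 23.9% to 25.4%), where it was 57.9% of all TCRBJ02-07 templates. The same CDR3 and V gene led TCRBJ02-07 in the tumor of 1e9 mouse 5, with 135 templates (3.37%), from a rearrangement that differs in its nucleotides. In 2.5e8 mouse 4 the leading CDR3 was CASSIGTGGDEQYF, also with TCRBV19-01, at 0 templates in day 0 blood (up to 0.112%, the limit set by 3 templates), 39 in day 7 blood (1.33%) and 363 in the tumor (12.7%). Their nucleotides are given to show that like CDR3s were reached by separate joins, with the bases assigned to the J segment in capitals.
2.5e8 mouse 2: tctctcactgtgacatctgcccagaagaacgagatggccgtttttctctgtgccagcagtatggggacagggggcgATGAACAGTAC
1e9 mouse 5: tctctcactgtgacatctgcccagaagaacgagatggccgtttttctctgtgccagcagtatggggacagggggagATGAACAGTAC
2.5e8 mouse 4: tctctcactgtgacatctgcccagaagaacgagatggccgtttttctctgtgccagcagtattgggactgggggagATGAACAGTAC
The 3 rearrangements have the same window start, the same length and the same stretch of TCRBJ02-07.

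A further CDR3, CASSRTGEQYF with TCRBV14-01, led TCRBJ02-07 in 2 mice of different experiments, again from different nucleotides.
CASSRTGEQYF, mRBC-CTRL mouse 5: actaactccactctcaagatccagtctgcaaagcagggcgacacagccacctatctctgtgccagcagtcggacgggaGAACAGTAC
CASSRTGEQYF, cured mouse 4: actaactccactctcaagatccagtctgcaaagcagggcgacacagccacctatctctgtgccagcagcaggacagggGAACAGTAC
In mRBC-CTRL mouse 5 it had 82 templates in day 7 blood (1.64%) and 1244 in the tumor (1.70%). In cured mouse 4 it was the leading TCRBJ02-07 rearrangement at all 4 samplings, with 77 (0.784%) and 215 templates (3.37%) before and after rechallenge and 133 (1.23%) and 209 (1.29%) before and after EL4.

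In cured mice 4, 5 and 6 the same rearrangement led TCRBJ02-07 at all 4 samplings, while in other cured mice the leader changed. Leaders of cured mice 1 and 7 were nevertheless found at all 4 samplings. In cured mouse 6 the TCRBV14-01 rearrangement shown for its G run had 287, 158, 264 and 383 templates in the order of sampling, which were 2.51%, 1.94%, 2.28% and 2.69%. In cured mouse 5 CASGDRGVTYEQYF, with TCRBV13-02, went from 27 templates (0.322%) on day 65 to 283 (5.65%) on day 73 and was at 105 (0.879%) and 174 (0.787%) around the EL4 challenge. In cured mouse 7 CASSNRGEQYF, with TCRBV19-01, led only around the EL4 challenge and had 11, 23, 274 and 160 templates (0.0917%, 0.490%, 2.50% and 1.75%), whereas the leader on days 65 and 73, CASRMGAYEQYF with TCRBV29-01, had 18, 49, 50 and 51. The day 65 leader of cured mouse 2, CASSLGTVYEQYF with TCRBV12-01, had 15, 4, 2 and 0 templates, and that of cured mouse 3, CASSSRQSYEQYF with TCRBV03-01, had 8, 0, 0 and 0. In cured mouse 1 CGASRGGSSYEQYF, with TCRBV20-01, had 18, 6 and 15 templates before the EL4 challenge and 130 after it (1.39%).

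Clones were then compared between consecutive blood libraries of a mouse, which compares those libraries and not the conditions. Among clones with at least 5 templates in both libraries together, 169 used TCRBJ02-07 between days 0 and 7 in 13 mice. Of these 86 (50.9%) were higher and 7 (4.14%) lower on day 7 (Fisher's exact test, Benjamini-Hochberg adjustment within the mouse), beside 54.7% and 2.71% of clones of all J segments. Between days 65 and 73, 31 of 138 (22.5%) were higher and 9 (6.52%) lower in 12 mice, beside 24.2% and 5.33% of all. Around the EL4 challenge, 16 of 204 (7.84%) were higher and 41 (20.1%) lower in the 7 cured mice, beside 8.36% and 14.9% of all. These figures for all J segments include the TCRBJ02-07 clones. Clones of the other J segments were higher in 56.8% and lower in 1.94% of 310 between days 0 and 7, in 26.4% and 3.77% of 106 between days 65 and 73, and in 8.94% each of 179 around EL4. Lower calls were few between days 0 and 7 (7 TCRBJ02-07 and 6 other clones) and between days 65 and 73 (9 and 4), and were 41 and 16 around EL4. Clones pooled over mice are not replicates, and the shares of calls were not compared by a test. TCRBJ02-07 clones made up 35.3%, 56.6% and 53.3% of the clones tested, above their share of templates, in a test that a clone enters by its templates. The largest clones called higher were the TCRBV19-01 rearrangement of 2.5e8 mouse 2 on day 7, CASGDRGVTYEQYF of cured mouse 5 on day 73 and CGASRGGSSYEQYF of cured mouse 1 after EL4, with the templates given above.

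Among tumor rearrangements with at least 1% of in-frame templates other than OT-1 and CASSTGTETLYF, 51 of 176 (29.0%) used TCRBJ02-07, 9 of 51 in mRBC-CTRL tumors, 22 of 62 at 2.5e8 and 20 of 63 at 1e9. This is close to its share of blood templates and above its share of rearrangements, and the shares were not compared by a test.

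Some TCRBJ02-07 CDR3s were found in nearly all mice. Of 39890 distinct CDR3s in blood, 139 (0.348%) were present in at least 14 of the 27 mice, beside 0.160% of the 196549 CDR3s of other J segments, and 79.2% were present in 1 mouse, beside 81.9%. None was found in all 27. The most widely shared were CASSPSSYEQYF, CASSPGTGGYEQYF and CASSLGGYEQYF, each in 25 mice and in 62, 53 and 48 libraries, and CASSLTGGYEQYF was also in 25 mice but in 35 libraries. They were reached by many joins, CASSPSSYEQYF by 52 rearrangements with 14 V genes and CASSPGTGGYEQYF by 106 with 15. Their templates were few, 430 and 483 over all blood libraries.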

How the data were processed

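TCRβ CDR3 regions were sequenced from genomic DNA of 66 blood and 15 tumor libraries (27 mice). The authors used the immunoSEQ assay, a multiplex PCR with bias control, after which sequences were collapsed, filtered and handled in the immunoSEQ Analyzer; the aligner and genome build are not given in the sources used here. For each rearrangement the authors deposited a count of templates, not normalized, and a fraction of all templates, which equalled the count divided by its sum in 81 of 81 libraries (within 1e-06). The segments, deleted and inserted bases and reading frame are also the authors' assignments. Nucleotide sequences are from the deposited files.

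Shares were computed in percent of templates or of distinct rearrangements other than OT-1, for all 14 J segments. Groups were compared by 2-sided exact permutation tests and libraries of a mouse by 2-sided sign-flip permutation tests (exact under 10 pairs, otherwise 100000 resamples), with Benjamini-Hochberg adjustment over the 14 J segments or 35 V genes and a threshold of 0.05. For in-frame against out-of-frame shares, junctions and V genes, the blood libraries of a mouse were summed. G-run neighbours were defined on the longest run of at least 4 G with the same 30 bases before it and the same bases after it. Clones were compared by Fisher's exact test for at least 5 templates. The procedures were tested on data with known answers. Count models were not used, because shares were compared and most clones belong to 1 mouse.

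Libraries were paired by the animal code in the labels, and the day 73 library of cured mouse 2, worded as mouse 1, was placed by that code. Deviations of J shares from the group means correlated at -0.0856 to 0.109 on average between libraries of the same animals. Samples are separate mice within a group. Library totals ranged from 2623 to 81909 templates, and single shares have 95% Wilson intervals. The genes named are TCRBJ02-07, the 3 J segments with the most stable ratio to it, TCRBV12-01, the 5 V genes with the largest called difference in each direction, the largest TCRBJ02-07 rearrangements of the libraries and of the clone calls, and the 3 CDR3s found in most mice. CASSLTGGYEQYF, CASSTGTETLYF and the G-run example were named after their values were seen. The segment, lists and tests were chosen with earlier results of these data known. Alternatives are given in the closing section. Tables were handled with pandas 2.3.3 and numpy 2.4.6 in python 3.11.15, tests were run with scipy 1.17.1, edits were counted with edlib 1.3.9.post1 and plots were drawn with matplotlib 3.10.9.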

Additional observations from a re-analysis of the deposited data

Results flagged for a closer look

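In 2 of 45 sets of 4 to 10 libraries, 1 library lay far from the others, and chance gives about 1 in 20. In day 73 blood, cured mouse 1 had 19.5% of in-frame rearrangements with TCRBJ02-07, and the other cured mice 17.9% to 18.5%. Among 1e9 tumors, mouse 2 had 34.2% of out-of-frame rearrangements with TCRBJ02-07, and the others 28.1% to 29.6%.

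The change in the TCRBJ02-07 template share from day 65 to day 73 differed between cured and naive mice by -2.30 percentage points (exact permutation test over 7 and 5 mice, p = 0.00253, not adjusted for the 3 differences of changes computed). It was 1.79 in naive mice, higher in 5 of 5, and -0.505 in cured mice, higher in 3 of 7. The contrast is not separate from the day 65 difference between these groups, as their means hardly differed on day 73. By distinct rearrangements the mean changes were 0.623 in naive and -0.598 in cured mice, and their contrast was not computed.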

How the results depend on the processing

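TCRBJ02-07 shares are in percentage points. By distinct rearrangements the differences became 0.0679 on day 0 and 1.01 on day 7 (1e9 minus mRBC-CTRL, blood), 0.269 and -0.361 (1e9 and 2.5e8 minus mRBC-CTRL, tumor), 0.356 (day 65, cured minus naive), -0.365 (mRBC-CTRL blood, day 7 minus day 0) and 1.91 (tumor minus blood; 1.40 without rearrangements sharing the CDR3 of one at least 20 times as large, a choice made after seeing the data). Without rearrangements of 1 template they were 0.178 and -7.11 (2.5e8 minus mRBC-CTRL, days 0 and 7), 3.43 and 1.53 (cured minus naive, days 65 and 73), -0.228, -7.73 and -3.87 (day 7 minus day 0 in mRBC-CTRL, 2.5e8 and 1e9 mice), 1.30 (cured, day 73 minus 65) and -19.5 (tumor minus blood, called, permutation test adjusted p = 0.00697). Subsampling to 482 templates, in 1 random draw per library, gave -0.892 (day 7, 2.5e8 minus mRBC-CTRL), 2.15 (day 65, cured minus naive) and 1.69 (day 73). Without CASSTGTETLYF the tumor differences were 4.29 (1e9 minus mRBC-CTRL) and 4.50 (tumor minus blood), and without the largest rearrangement of each library 3.78 and 4.58, with 0.498 in day 7 blood at 1e9. On the log2 scale tumor minus blood was -0.77 and called.

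Mice of different groups share numbers only (mean correlations of -0.232 to 0.198, no comparison with every pair over 0.1). Under a replicate block by mouse number the differences came to 0.221 (day 7 blood, 1e9 minus mRBC-CTRL), 20.2 (tumor, 1e9 minus mRBC-CTRL, no longer called with 5 pairs), 5.39 (the same by out-of-frame rearrangements, no longer called), 2.16 (day 65, cured minus naive, no longer called) and 0.166 (day 73). Without the block of mice, tumor minus blood was -7.85 and called (permutation test, adjusted p = 0.0485). In the other comparisons the block changed no call.

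Leaving out 1 mouse gave 0.591 to 2.68 (1e9, day 7 minus day 0), -0.0353 to 2.91 (2.5e8), 0.331 to 1.08 (mRBC-CTRL), 0.166 to 0.632 and -0.658 to -0.322 (cured, after minus before EL4 and day 73 minus 65), 1.36 to 2.16 (naive), -1.10 to -0.429 and -1.09 to 0.828 (day 0, 1e9 and 2.5e8 minus mRBC-CTRL), -0.922 to 0.811 and 0.177 to 1.26 (day 7), 17.3 to 22.7 and 8.01 to 16.3 (tumor, the former called throughout), 1.98 to 2.64 (day 65, cured minus naive), -0.282 to 0.322 (day 73) 4.34 to 5.86 (out-of-frame rearrangements in tumor, 1e9 minus mRBC-CTRL, lost without mRBC-CTRL mouse 1, 2, 3 or 5) and -8.71 to -5.89 (tumor minus blood, called without 1e9 mouse 1 or 2 or 2.5e8 mouse 2).

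In-frame minus out-of-frame was -0.416 by templates, 1.65 with stop-codon joins in place of out-of-frame ones, and, by choices made after seeing the data, 1.79 without G-run neighbours, 1.96 with equal template counts included, 1.28 for TCRBD01 joins and 6.89 for 2 or more templates. For TCRBV12-01 the difference was 0.301 against other TCRBJ02 segments and, added after seeing the data, 0.442 in day 0 blood of the treatment experiment. Also added after seeing the data, leaving out rearrangements near OT-1 gave, within 2 and 4 edits, 0.272 and -0.141 for out-of-frame TCRBV12-01 and 3.14 and 2.36 for out-of-frame rearrangements in tumor (1e9 minus mRBC-CTRL), which were 5.19 without G-run neighbours and 0.980 without both; no call was kept. Of 511 TCRBJ02-07 clones 190 were called, 93 of 142 at a minimum of 10 templates, and 97 of 511 under a threshold of 0.01. Apart from leaving out mice, 112 alternatives kept direction and call, 26 changed direction, 19 lost and 3 gained a call. Depth limits the smallest library most (482 templates).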

Other observations

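CDR3s ending in GTGGDEQYF, a pattern noticed in the leading tumor rearrangements and not tested, held 69.5% of TCRBJ02-07 templates other than OT-1 in the tumor of 2.5e8 mouse 2, 45.7% in that of 2.5e8 mouse 4 and 17.3% in that of 1e9 mouse 5. In the other 12 tumors they held 0% to 2.97%. In day 7 blood they held up to 27.5% at 2.5e8, up to 6.67% at 1e9 and up to 0.125% in mRBC-CTRL mice. In day 0 blood they held up to 1.04%, and in blood of the rechallenge experiment up to 0.620%. The tumor rearrangements with this ending and at least 20 templates used TCRBV19-01 or TCRBV17-01 and either D segment. In the tumor of 2.5e8 mouse 2, 1 such rearrangement with TCRBV17-01 had 622 templates beside the 3250 of that with TCRBV19-01, and in that of mRBC-CTRL mouse 3, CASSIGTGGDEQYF had 48 and 22 templates in rearrangements with different D segments.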
